A study of Mus musculus with 8 samples.

Results

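The genes described here are *Jak1* and *Jak3*, *Stat3*, *Stat5a*, *Stat5b* and *Stat6*, and *Cish*, *Socs1*, *Socs2* and *Socs3*. These 10 genes of the cytokine signalling pathway were chosen by name out of the 55335 genes of the count table, and all 10 passed the filter on low counts that left 15378 genes for testing. RNA was measured in CD8+ tumor-infiltrating lymphocytes (TILs) sorted from MC38 tumors, which are mouse colon carcinoma cells implanted subcutaneously, in C57BL/6 mice aged 6 to 10 weeks. The 4 WT samples (S1 to S4) came from Lsd1f/f mice, in which both copies of the gene for the histone demethylase LSD1 are floxed but intact. The 4 KO samples (S5 to S8) came from Cd4-Cre+Lsd1f/f littermates, in which Cre under the *Cd4* promoter deletes the floxed gene in developing T cells, so CD4+ T cells of these mice lose LSD1 as well. Each WT sample pooled TILs of 2 mice while each KO sample was 1 mouse, and 10000 to 20000 cells of the CD45.2+TCR beta+CD8+CD44+PD-1+ gate went into each. Tumors were harvested on day 18 according to the methods and on day 14 according to the series text.

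Cytokines that bind receptors without enzyme activity of their own signal through Janus kinases (JAKs), which phosphorylate STAT proteins that then enter the nucleus and switch on target genes. In CD8+ T cells, IL-2, IL-7 and IL-15 act through JAK1, JAK3 and the paired STAT5A and STAT5B proteins, IL-6, IL-10, IL-21 and IL-27 act largely through STAT3, and IL-4 acts through STAT6. Among the genes that STATs switch on are *Cish* and the *Socs* genes, whose SH2-domain proteins bind receptors or JAKs and dampen the same signal, so that their RNA is widely read as a trace of recent cytokine signalling.

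*Cish* and *Socs3* were the only members whose RefSeq promoter window held the letters TTCNNNGAA. Such a window runs from 250 bases before to 50 bases after a RefSeq start. TTCNNNGAA is the core motif that STAT dimers bind, and it reads the same on both strands. Windows were found for 9 of the 10 members, *Socs2* excepted. The motif lay in 2726 of 32851 such mouse promoter windows, or 8.30%. Both sequences are shown because they carry these matches, from the GRCm38.p6 build in the direction of the gene, with the matches in capitals. The *Cish* window (chr9:107296409-107296708, plus strand) held 2 matches separated by 2 bases, as only 0.457% of all windows held 2 or more, and they start at bases 251 and 262. The *Socs3* window (chr11:117969317-117969616, minus strand) held 1 match that starts at base 97. Both windows lie inside the annotated gene spans given below, which begin further upstream, at 107296026 for *Cish* and 117970047 for *Socs3*. The matches are therefore not upstream of those gene starts. Both *Cish* matches also lie at or after the RefSeq start of their window. A match is a run of letters, and no binding was measured in these samples.
Cish: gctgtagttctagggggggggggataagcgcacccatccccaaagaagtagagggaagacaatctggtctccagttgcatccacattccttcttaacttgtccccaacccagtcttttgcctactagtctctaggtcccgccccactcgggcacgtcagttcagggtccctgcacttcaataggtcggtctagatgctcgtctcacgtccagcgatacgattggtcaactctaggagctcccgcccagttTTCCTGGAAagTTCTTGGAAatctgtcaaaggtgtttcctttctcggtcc
Socs3: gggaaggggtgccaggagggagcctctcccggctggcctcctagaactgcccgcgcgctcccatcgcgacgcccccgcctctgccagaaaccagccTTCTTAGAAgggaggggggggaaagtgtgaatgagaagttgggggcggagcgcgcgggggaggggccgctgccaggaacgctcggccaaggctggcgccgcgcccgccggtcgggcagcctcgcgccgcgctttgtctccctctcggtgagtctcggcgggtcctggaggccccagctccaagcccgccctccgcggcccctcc

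None of the 10 genes changed between WT and KO cells by the criteria of the study, which are a fold change over 1.5 with an adjusted p under 0.01 (edgeR quasi-likelihood test, Benjamini-Hochberg over 15378 genes) and which 4.90% of all genes met. The 10 log2 fold changes of KO over WT ran from -0.34 for *Stat5a* to 0.56 for *Socs2*, with a median of 0.12 against -0.01 over all genes tested, and 7 were above 0. Their median distance from 0 was 0.15, against 0.29 for all genes. No member reached an adjusted p under 0.05 at any fold, which 11.3% of all genes did (6.31% higher and 4.98% lower in KO). At an unadjusted p under 0.05, 3 of the 10 passed with edgeR (*Socs2*, *Stat5a* and *Stat6*), as did 24.5% of all genes. With DESeq2 4 of the 10 passed, and the share of all genes that passed with it was not counted. By the criteria of the study DESeq2 called 0 of the 10 and 1078 of the 15378 genes. The samples of both groups did not overlap in 2 of the 10 genes, *Stat5a* and *Jak1*, against 17.3% of all genes. A missed threshold does not show equal levels, but in 7 of the 10 genes the 95% interval of the fold change lay within 1.5-fold on either side, as it did for 30.9% of all genes. The 3 genes with wider intervals were *Socs2*, *Socs3* and *Stat5a*. All 10 members had a mean log2 CPM above 3, as did only 9238 of the 15378 genes. The median distance from 0 and the share of narrow intervals were not compared with genes of like level, so they do not show that the members were unusually stable.

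**Figure D1:**
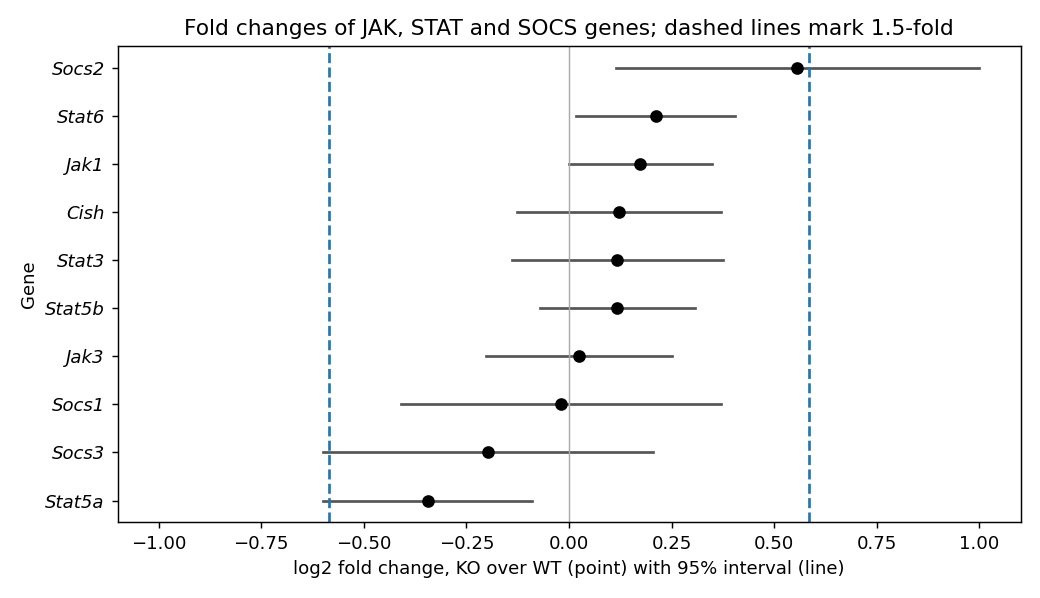
Log2 fold change of KO over WT (x axis, no unit) for each of the 10 genes (y axis), with the point from edgeR and a line for its 95% interval over 4 WT and 4 KO samples. Dashed lines mark 1.5-fold either way, and the lines of *Socs2*, *Socs3* and *Stat5a* reach past them.

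Values below are CPM, that is counts put on one library size with edgeR's TMM factors, given in the order S1 to S4 for WT and S5 to S8 for KO. Sorted cells were lysed in bulk, so fewer cells that express a gene and less RNA of it per cell cannot be told apart. Nothing in the labels ties samples to litters or days, and the p-values set group differences against the spread between these 8 samples. For each gene edgeR took the same spread for both groups, although WT samples pooled 2 mice and KO samples were 1 mouse each. Library totals ran from 11657807 to 30295406 counts, with S8 the deepest, and the lowest member count in any sample was 126 (*Socs2* in S3). The targeted gene *Kdm1a*, which encodes LSD1, was at 44.9 ± 1.87 CPM in WT and 30.6 ± 4.03 CPM in KO cells (SD, n = 4 each), lower in all 4 KO samples. It missed the call (log2 fold change -0.55, edgeR adjusted p = 0.0163), and how much deletion the sorted cells carried was not measured here. Of 7 markers of the sorted cells, such as *Cd3e*, *Cd8a* and *Pdcd1*, the summed level was 4892 to 5281 CPM in WT and 4633 to 5160 CPM in KO samples. The near-equal sums covered genes on both sides, as 2 of the 7 log2 fold changes were above 0 and 5 below, with a median of -0.26. *Cd44* was called higher in KO cells (log2 fold change 0.86, edgeR adjusted p = 0.000107) and *Cd8b1* was not called at -0.39 (edgeR adjusted p = 0.0158). Of 17 myeloid markers, 16 passed the filter on low counts, and 11 of these were called lower and 0 higher in KO cells. Over all 17, the summed level was 500 to 1480 CPM in WT, highest in S3, and 288 to 380 CPM in KO samples, and no myeloid marker was at 0 in every sample. Summed levels of other cell types were 1.71 to 3.43 CPM in WT and 1.86 to 4.66 CPM in KO samples for 4 B cell markers, and 0.381 to 1.32 CPM and 2.32 to 6.56 CPM for 3 NK cell markers. They were 2.56 to 7.68 CPM in WT and 8.60 to 28.7 CPM in KO samples for *Cd4* and *Foxp3*, and 21.4 to 32.1 CPM and 57.4 to 79.3 CPM for 6 tumor and stroma markers, of which *Krt8* was at 0 in all samples. Most of the last sum was *Pecam1*, with group means of 22.9 CPM in WT and 63.7 CPM in KO cells, whereas *Col1a1* was at 1.07 and 0.64 CPM and the other 4 were under the filter on low counts. The part of these cells in the results below was not tested.

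JAK3 pairs only with the common gamma chain of the IL-2, IL-4, IL-7, IL-9, IL-15 and IL-21 receptors, whereas JAK1 serves these and many other receptors, including those for interferons and IL-6. *Jak1* (ENSMUSG00000028530.14, chromosome 4 of GRCm38, 101152367 to 101265282) was at 490, 463, 449 and 455 CPM in WT and 531, 516, 508 and 542 CPM in KO samples. All 4 KO samples were above all 4 WT samples, and the samples within a group lay close together, with a coefficient of variation of 3.88% in WT and 2.88% in KO cells. The difference was small, with a log2 fold change of 0.17 (standard error, SE, 0.08) and a 1.13-fold higher level (95% interval 1.00 to 1.27). It was not called by edgeR (adjusted p = 0.206). The exact two-sided permutation test over the 70 arrangements of 4 against 4 samples gave the smallest p it can give, 0.0286. Every gene whose groups do not overlap, 17.3% of all genes tested, gets this p. It restates the separation and adds nothing to it. *Jak3* (ENSMUSG00000031805.17, chromosome 8, 71676296 to 71690575) was at 407, 356, 423 and 378 CPM in WT and 485, 373, 368 and 364 CPM in KO samples. The KO sample S5 stood above the other 7 and the groups overlapped. The log2 fold change was 0.02 (SE 0.11, edgeR adjusted p = 0.931), and the 95% interval of 0.870 to 1.19-fold lay within 1.5-fold either way. Without S5 the log2 fold change of *Jak3* was -0.08. On the same strand 404 exon bases of *Jak3* are also annotated to *Insl3*, which had 0.907% as many counts.

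*Stat3* (ENSMUSG00000004040.16), *Stat5a* (ENSMUSG00000004043.14) and *Stat5b* (ENSMUSG00000020919.11) are neighbours on chromosome 11, from 100780731 at the end of *Stat5b* to 100939540 at the start of *Stat3*. *Stat3* encodes the main carrier of IL-6, IL-10 and IL-21 signals. It was at 994, 719, 772 and 935 CPM in WT and 1112, 870, 953 and 778 CPM in KO samples. Both groups spread widely and overlapped, with coefficients of variation of 15.3% in each. *Stat3* had a log2 fold change of 0.12 (SE 0.12, edgeR adjusted p = 0.620), with an interval of 0.908 to 1.30-fold.

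STAT5A and STAT5B are near-identical proteins that carry the IL-2, IL-7 and IL-15 signals, with STAT5B the more abundant in T cells. *Stat5a* was at 92.6, 83.4, 76.9 and 99.8 CPM in WT and 73.5, 72.5, 58.0 and 73.6 CPM in KO samples. Each KO sample was below each WT sample, although S3 and the 3 upper KO samples were close. The log2 fold change of *Stat5a* was -0.34 (SE 0.12), a level 0.788 times that of WT with an interval of 0.661 to 0.939. With an adjusted p of 0.0770 from edgeR it had the lowest of the 10 members but was not called. The exact permutation test gave p = 0.0286, which, as for *Jak1*, only restates that the groups did not overlap. *Stat5b* was at 146, 149, 154 and 147 CPM in WT and 165, 165, 152 and 165 CPM in KO samples. Its samples were among the tightest of all members, with a coefficient of variation of 2.31% in WT and 4.09% in KO cells, and 3 KO samples were above every WT sample while S7 lay inside the WT range. *Stat5b* had a log2 fold change of 0.12 (SE 0.09, edgeR adjusted p = 0.469), with an interval of 0.952 to 1.24-fold.

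The fold changes of the paralogs lay on opposite sides of 1, and the share of *Stat5a* in their summed counts, which does not depend on library scaling, was chosen after the values had been seen, so it is described without a p-value. *Stat5a* made up 38.7%, 35.8%, 33.3% and 40.5% of the counts of both genes in WT and 30.8%, 30.5%, 27.6% and 30.8% in KO samples. The groups did not overlap, at 37.1% ± 3.16 (SD, n = 4) in WT and 29.9% ± 1.55 (SD, n = 4) in KO cells. S7, with the lowest share, also had the lowest level of either gene among KO samples. Of the 42-base stretches in *Stat5a* exons, 9.92% occurred in other genes, mostly *Stat5b*, and 12.6% of those in *Stat5b* occurred elsewhere, mostly in *Stat5a*, so counts in these stretches are uncertain. The last 72 exon bases of *Stat5a* overlap *Stat3* on the opposite strand. Over its whole length *Stat3* had 112326 counts in the 8 samples together, against 10080 for *Stat5a*. The strand setting of the counting was not given, and reads from this overlap could belong to either gene.

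**Figure D2:**
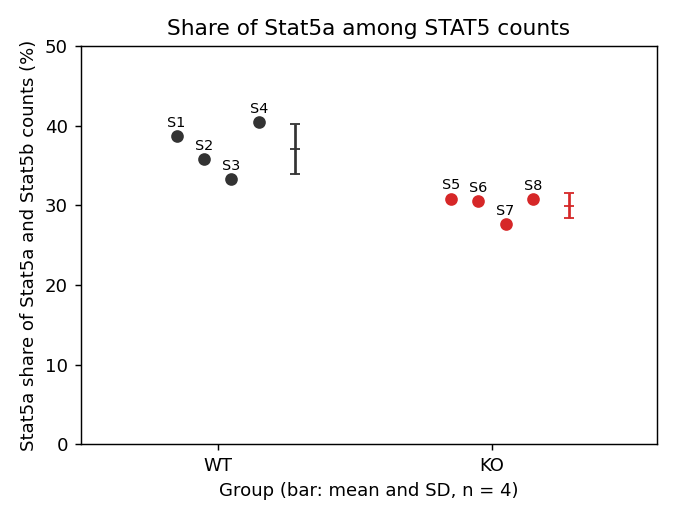
Share of *Stat5a* in the summed counts of *Stat5a* and *Stat5b* (y axis, percent) in each WT and KO sample (x axis), with points named by sample and bars for the mean and SD over 4 samples. The 4 KO samples lie between 27.6% and 30.8%, all below the WT samples at 33.3% to 40.5%.

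STAT6 carries the IL-4 and IL-13 signals. *Stat6* (ENSMUSG00000002147.18, chromosome 10, 127642986 to 127660957) was at 177, 181, 190 and 174 CPM in WT and 225, 212, 190 and 209 CPM in KO samples. In 3 KO samples it was above every WT sample, and S7 was level with S3. For *Stat6* the log2 fold change was 0.21 (SE 0.09, edgeR adjusted p = 0.165), a 1.16-fold difference with an interval of 1.01 to 1.32. Its final 40 exon bases in the annotation overlap *Nab2* on the opposite strand.

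CISH, the protein of *Cish* (ENSMUSG00000032578.7, chromosome 9, 107296026 to 107302784), dampens IL-2 and T-cell receptor signals and is induced through STAT5. *Cish* was at 202, 212, 214 and 212 CPM in WT and 287, 183, 225 and 220 CPM in KO samples. The WT samples had a coefficient of variation of 2.50%, whereas the KO samples held both the lowest and the highest of the 8 values and had a coefficient of 18.9%. Each WT sample pooled 2 mice and each KO sample was 1 mouse, so pooling and genotype cannot be told apart in these spreads. The log2 fold change was 0.12 (SE 0.12, edgeR adjusted p = 0.586), with an interval of 0.917 to 1.29-fold, and without S5 it was -0.0036. *Cish* exons share 9.76% of their 42-base stretches with other genes, mostly the antisense gene *Gm17041*, which had 12 counts in all.

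SOCS1 inhibits JAK1, JAK2 and TYK2 and limits interferon and common gamma chain signals. *Socs1* (ENSMUSG00000038037.5, chromosome 16, 10782240 to 10785536) was at 32.0, 41.8, 31.9 and 41.2 CPM in WT and 27.5, 31.1, 35.4 and 50.5 CPM in KO samples. As with *Cish*, the KO samples, each of 1 mouse, spread wider than the WT pools of 2 mice, from below to above them. The group means were 36.7 ± 5.50 CPM in WT and 36.1 ± 10.1 CPM in KO cells (SD, n = 4 each), a log2 fold change of -0.02 (SE 0.18, edgeR adjusted p = 0.972) with an interval of 0.753 to 1.29-fold. Leaving out single samples put *Socs1* between -0.23 (without S8) and 0.10 (without S5).

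SOCS3 binds the shared gp130 receptor chain and limits IL-6 family and IL-12 signals. *Socs3* (ENSMUSG00000053113.3, chromosome 11, 117966079 to 117970047) was at 89.2, 108, 98.2 and 71.0 CPM in WT and 58.8, 77.0, 62.3 and 120 CPM in KO samples. The highest of all 8 values, in S8, and the lowest, in S5, were both KO samples. *Socs3* had a log2 fold change of -0.20 (SE 0.19, edgeR adjusted p = 0.586), with an interval of 0.660 to 1.15-fold. Without S8 it was -0.47, with an adjusted p of 0.0564 from edgeR, which was the lowest adjusted p of any member in any alternative run, and *Socs3* was not called there either.

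SOCS2 limits growth hormone and STAT5 signals. *Socs2* (ENSMUSG00000020027.18, chromosome 10, 95385362 to 95417180) was at 16.4, 11.6, 10.3 and 14.8 CPM in WT and 14.8, 20.2, 20.6 and 22.3 CPM in KO samples. In 3 KO samples it lay above every WT sample, and S5 lay inside the WT range. *Socs2* had the largest difference of the 10, at 13.2 ± 2.82 CPM in WT and 19.5 ± 3.27 CPM in KO cells (SD, n = 4 each). The log2 fold change of 0.56 (SE 0.21), or 1.47-fold with an interval of 1.08 to 2.00, was not called (edgeR adjusted p = 0.102, exact permutation p = 0.0571). It stayed between 0.45 and 0.68 when single samples were left out. *Socs2* was also the least abundant member, with 126 to 635 counts per sample, so counting error alone gave a coefficient of variation of 8.91% at its lowest count. Of its 42-base stretches, 5.26% occurred in other genes, mostly *Gm9847*.

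Compared per length, as CPM per kilobase of merged annotated exons, WT levels were ordered from *Stat3* (89.8 ± 13.7, SD, n = 4) through *Jak3* (73.0 ± 5.58), *Jak1* (64.3 ± 2.50), *Stat6* (41.0 ± 1.59), *Cish* (32.7 ± 0.820), *Socs3* (31.6 ± 5.39), *Stat5b* (26.9 ± 0.622), *Socs1* (12.6 ± 1.89) and *Stat5a* (12.4 ± 1.41) to *Socs2* (1.39 ± 0.296). Neighbours whose WT samples overlapped were *Stat3* and *Jak3*, *Jak3* and *Jak1*, *Cish* and *Socs3*, *Socs3* and *Stat5b*, and *Socs1* and *Stat5a*. The steps from *Jak1* to *Stat6*, from *Stat6* to *Cish*, from *Stat5b* to *Socs1* and from *Stat5a* to *Socs2* were free of overlap. The order of KO means was the same except that *Stat5b* (29.2 ± 1.20) came before *Socs3* (27.5 ± 9.73), whose samples overlapped in both groups. On this scale levels of the kinases and of *Stat3* exceeded those of all 4 feedback genes, but the scale depends on the merged exon length. For *Cish* that length was 6419 bases, most of the gene from 107296026 to 107302784. Its level is understated if its transcripts are shorter, so its rank against *Jak1*, *Jak3* and *Stat3* is uncertain.

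**Figure D3:**
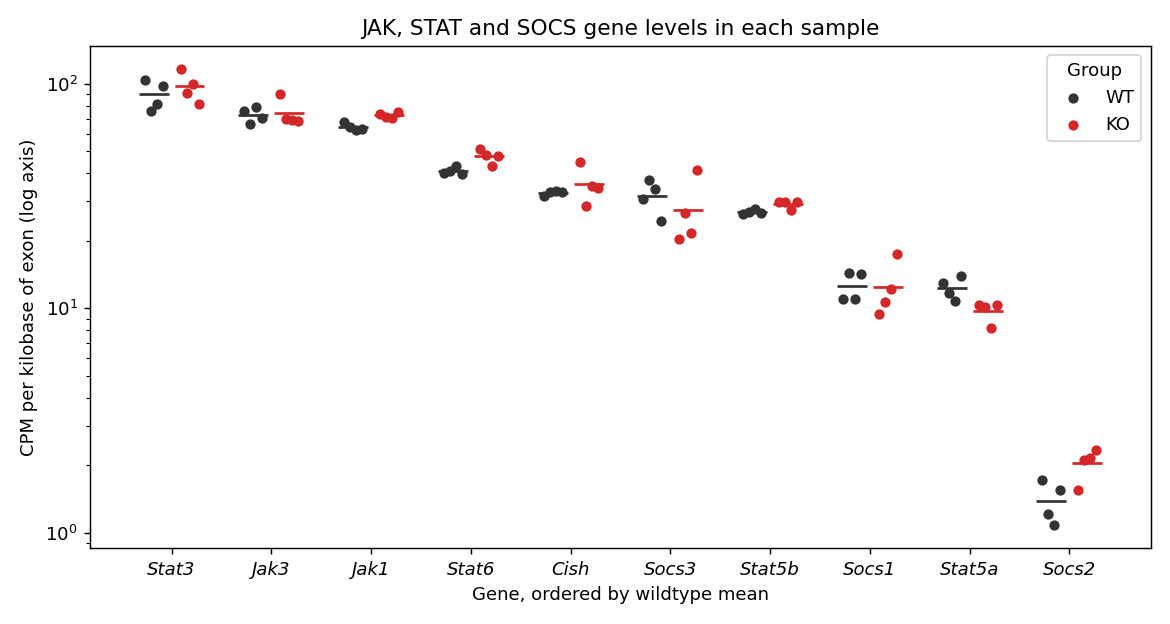
Level of each of the 10 genes (x axis, ordered by WT mean) in each sample, in CPM per kilobase of exon on a log axis (y axis), with WT samples in black, KO samples in red and a line for each group mean over 4 samples. Groups overlap for 8 genes, while *Jak1* is higher and *Stat5a* lower in every KO sample.

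The spread of the members within the KO group was looked at after the values had been seen, so it is given as a description. *Socs1*, *Socs2* and *Socs3* were each lowest in S5 and highest in S8 among the 4 KO samples. Of the 10 members, these 3 were the ones lowest in S5, as were 29.2% of all 15378 genes, and 6 were highest in S8, as were 23.2% of all genes. *Cish* did not share the ranking and was highest in S5. S8 was the deepest library, though S5 was the next deepest of the KO samples, and the part of depth was not tested.

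**Figure D4:**
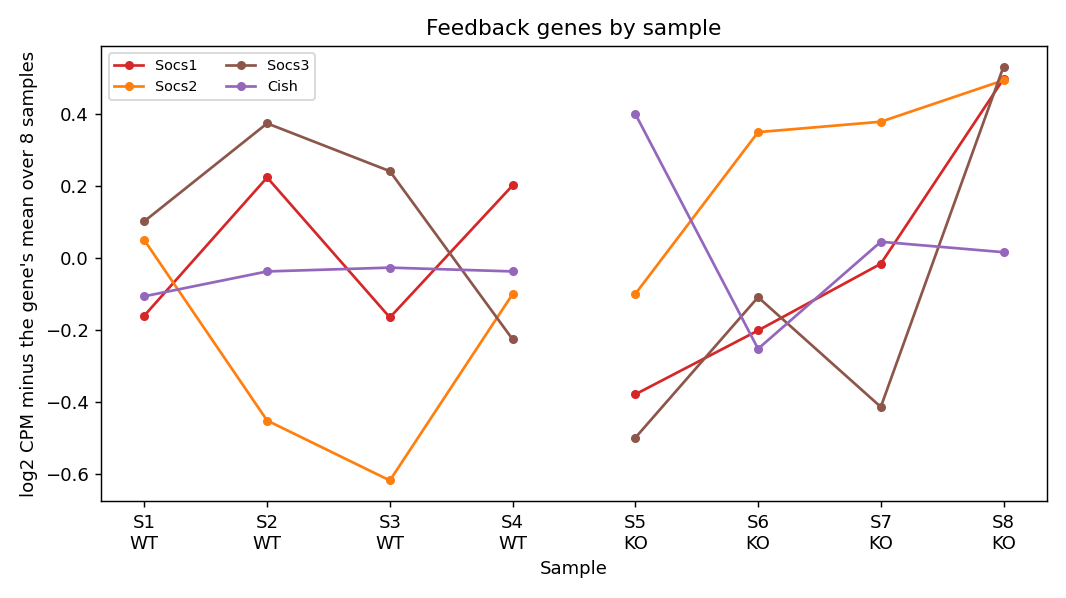
Log2 CPM of the 4 feedback genes minus each gene's mean over the 8 samples (y axis), by sample (x axis), where lines join the points of a gene within a group and the samples have no order. *Socs1*, *Socs2* and *Socs3* are lowest in S5 and highest in S8 among KO samples, with *Socs1* running from 27.5 to 50.5 CPM, while *Cish* is highest in S5 at 287 CPM.

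Of 8 other JAK, STAT and SOCS genes, 1 was called, against 4.90% of all genes. *Socs5*, an inhibitor of EGF receptor and IL-4 receptor signals, fell from 34.3, 19.9, 22.4 and 22.1 CPM in WT to 13.3, 4.93, 10.8 and 7.60 CPM in KO samples, with no overlap. Its log2 fold change was -1.43 (SE 0.27, edgeR adjusted p = 0.00216), and without S1, its highest sample, the adjusted p was 0.0108, just past the threshold. *Stat2*, which carries type I interferon signals, was at 108 ± 16.2 CPM in WT and 161 ± 19.0 CPM in KO cells (SD, n = 4 each), and the groups did not overlap. Its adjusted p was 0.00547, and its 1.49-fold difference lay just under the fold threshold, so it was not called, although it was with GC content offsets (log2 fold change 0.61) and without S1 (0.64) or S5 (0.65). *Stat4*, the IL-12 transducer, was at 98.8 ± 16.7 CPM in WT and 134 ± 5.86 CPM in KO cells (SD, n = 4 each) and was not called (log2 fold change 0.43, adjusted p = 0.0218). *Jak2*, the kinase of the IL-12 and interferon gamma receptors, had a log2 fold change of 0.28 (adjusted p = 0.104). Of 10 other negative regulators of the pathway, 1 was called: *Ptpn6*, which encodes the phosphatase SHP-1, fell from 261 ± 24.1 to 170 ± 37.6 CPM (SD, n = 4 each), with a log2 fold change of -0.62 (edgeR adjusted p = 0.00540). *Ptpn6* is also expressed in myeloid cells, whose markers were lower in KO samples. Across the WT samples S1 to S4 *Ptpn6* was at 230, 261, 266 and 288 CPM, highest in S4, whereas the summed myeloid markers were highest in S3. The part of myeloid RNA in its fall was not tested. The call of *Ptpn6* was lost without S2, S3, S4, S6, S7 or S8 (edgeR adjusted p 0.0142 to 0.0225). *Ptpn11*, *Sh2b3* and *Pias2* had log2 fold changes of -0.36, -0.62 and 0.20 and were not called.

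Of 21 receptor chains that signal through JAKs, 20 were tested, of which 5 rose and 4 fell, against 2.91% of all genes called higher and 1.99% called lower. These shares are a description. The list was chosen with earlier results of these data known and was not compared with genes of like level. *Il7r*, the IL-7 receptor alpha chain, rose from 184 ± 23.9 to 424 ± 60.7 CPM (SD, n = 4 each), a log2 fold change of 1.20 (edgeR adjusted p = 4.65e-06). *Il2ra* (0.80), *Il12rb1* (0.79), *Il12rb2* (1.13) and *Il6st* (1.12), chains of the IL-2, IL-12 and IL-6 family receptors, also rose on the log2 scale. The IL-2 receptor beta and common gamma chains, which bring JAK1 and JAK3 together, were not called, with log2 fold changes of 0.11 for *Il2rb* (adjusted p = 0.530) and -0.05 for *Il2rg* (adjusted p = 0.804). *Il4ra*, the IL-4 receptor alpha chain upstream of STAT6, fell from 153 ± 11.4 to 76.0 ± 5.54 CPM (SD, n = 4 each), a log2 fold change of -1.01 (edgeR adjusted p = 5.23e-06). *Il27ra*, the IL-27 receptor chain, fell with a log2 fold change of -0.63. *Ifngr2* (-3.32) and *Csf2rb* (-2.31), chains of the interferon gamma and GM-CSF receptors, fell from low levels. Both were highest in S3, at 14.8 and 13.2 CPM, the sample with the most myeloid marker RNA, and *Ifngr2* was not called without S3 (adjusted p = 0.0302) or without S7 (adjusted p = 0.0103). *Il10ra* had an adjusted p of 0.00174 but a log2 fold change of -0.52, under the fold threshold, and the interferon receptor genes *Ifnar1* (0.36) and *Ifnar2* (0.47) were not called.

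Of 15 cytokine genes, 9 were tested and 0 were called by edgeR at the study's criteria, against 4.90% of all genes. At an unadjusted p under 0.05 there were 4 of the 9, against 24.5% of all genes, and *Il13* was called by DESeq2. *Ifng*, the interferon gamma gene, was at 330 ± 83.1 CPM in WT and 462 ± 54.4 CPM in KO cells (SD, n = 4 each), with S4 inside the KO range. It was not called with all samples (log2 fold change 0.49, adjusted p = 0.0331) and was called without S4 (log2 fold change 0.68). *Il13* was at 0, 0.218, 0.490 and 1.81 CPM in WT and 6.04, 6.38, 1.00 and 5.28 CPM in KO samples (adjusted p = 0.0406), and it was called without S4 or without a filter on low counts. For scale, 3 counts correspond to 0.106 to 0.250 CPM. *Lif*, an IL-6 family cytokine, had a log2 fold change of -1.31 (adjusted p = 0.0537).

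Lists of genes known as STAT targets were counted in the same way. Of 12 STAT5 targets, 1 rose and 2 fell, with a median log2 fold change of 0.12, against 2.91% of all genes called higher and 1.99% called lower. *Il2ra* rose, as above, while *Myc*, which drives growth and division, fell from 72.1 ± 11.2 to 33.2 ± 10.1 CPM (SD, n = 4 each), a log2 fold change of -1.11 (edgeR adjusted p = 0.000840). The survival gene *Bcl2* fell with a log2 fold change of -0.84 (adjusted p = 0.00500), although S8, at 270 CPM, came close to the lowest WT sample at 275 CPM, and its call was lost with DESeq2 (adjusted p = 0.0175) and without S2, S3, S5, S6 or S7 (adjusted p 0.0150 to 0.0237). *Bcl2l1*, *Ccnd3* and *Pim1* had log2 fold changes of -0.35, 0.23 and 0.26 and were not called. Of 10 STAT3 targets, 9 were tested and 2 rose, against 2.91% of all genes. They were the repressor gene *Bcl6* (log2 fold change 0.82, adjusted p = 0.00292) and the NF-kB cofactor gene *Bcl3* (0.80, edgeR adjusted p = 0.00170), with a list median of 0.34. *Bcl6* was not called without S1, S2, S4 or S7 (adjusted p up to 0.0146). *Batf*, *Prdm1* and *Junb* had log2 fold changes of 0.44, 0.34 and -0.32 and were not called.

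Of 5 STAT6 targets, 3 were tested and 1 fell, *Il4ra* again, against 1.99% of all genes. *Gata3* and *Nfil3* had log2 fold changes of 0.21 and -0.04 and were not called.

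**Figure D5:**
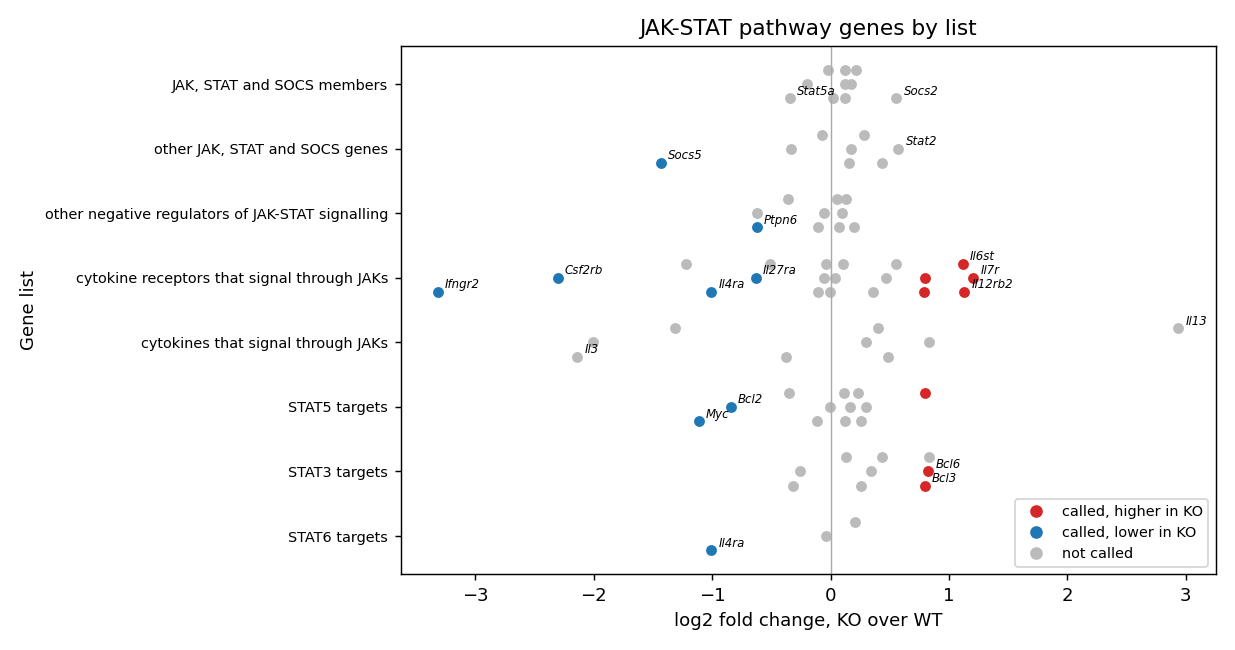
Log2 fold change of KO over WT (x axis) for each tested gene of 8 lists (y axis), with genes called higher in red, called lower in blue and not called in grey. All 10 members are grey and lie between -0.34 and 0.56, while 9 of the 20 receptor genes are colored.

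The genes whose profile over the 8 samples was most like that of *Socs2*, by the root mean square difference of log2 CPM after each gene's mean was removed, were *S1pr4* (0.116), *Hs6st1* (0.120) and *Rybp* (0.138) out of 9238 genes with a mean log2 CPM above 3. Closest to *Stat5a* were *Ctdnep1* (0.0608), *Slc7a1* (0.0735) and *Ppp2r5d* (0.0770). No member was called, and *Socs2* and *Stat5a* were taken for this after their values were seen, as the members with the largest log2 fold change and the lowest adjusted p.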

How the data were processed

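Libraries were made from sorted CD8+ TILs after ribosomal RNA depletion, with a directional kit. The authors aligned paired reads to GRCm38 with STAR and deposited raw gene counts from featureCounts. Whether counting used the strand was not given in the sources used here. Columns were placed in WT or KO by the key of the study's principal component plot, which carries no replicate numbers.

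GENCODE M21 on GRCm38 gave symbols, coordinates and merged exon lengths for 55154 of 55335 gene IDs. Genes were filtered with filterByExpr, scaled with TMM and tested with edgeR 4.0.16 (R 4.3.3) by glmQLFit and glmQLFTest without covariates, after tests on simulated data. SE is the size of the log2 fold change divided by the square root of F. Log2 CPM used a prior count of 2. Alternatives were other scalings and filters, DESeq2 1.42.0, GC content offsets (mgcv 1.9.3), other thresholds and leaving out each sample. The study's own GC correction was not repeated. Exon overlaps and shared 42-base stretches were computed for the 10 members only. Intervals of the fold change rest on the SE of the edgeR fit, which includes the spread between samples. Only the coefficient of variation given for the lowest count of *Socs2* covers counting error alone.

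Members and lists were chosen with earlier results of these data known. Named genes are the 10 members, each list's called genes and up to 3 more per list with the smallest adjusted p, and *Kdm1a*. The rule also named genes most like a called member; no member was called, so *Socs2* and *Stat5a* were used instead. *Il2rb*, *Il2rg*, *Cd44*, *Cd8b1*, *Pecam1* and *Col1a1* were added after their values were seen. A gene and a target list of the original design are not reported here.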

Additional observations from a re-analysis of the deposited data

Results flagged for a closer look

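Within a group of 4 samples, 1 sample stood apart from the other 3 in 8 of 92 groups tested by Dixon's ratio, the gap to the nearest sample over the range of log2 CPM, where chance gives about 1 in 20, or 4.6 groups. Of the 20 groups of the 10 members, 4 were among them. *Stat5a* (58.0 CPM, ratio 0.937) and *Stat5b* (152 CPM, ratio 0.962) were both low in the KO sample S7, against 72.5 to 73.6 CPM and 165 CPM in the other KO samples. *Jak3* was high in the KO sample S5 (485 CPM, ratio 0.916) against 364 to 373 CPM, and *Cish* was low in the WT sample S1 (202 CPM, ratio 0.867) against 212 to 214 CPM. Among the other genes of the pathway, *Ifng* was high in the WT sample S4 (454 CPM, ratio 0.869), *Il13* low in S7 (1.00 CPM, ratio 0.894), *Pim1* low in S3 (141 CPM, ratio 0.839) and *Batf* low in S6 (29.6 CPM, ratio 0.935).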

How the results depend on the processing

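No member was called under any of the alternatives run. No paired analysis was possible because the columns carry no replicate numbers. Over all genes, 753 were called with edgeR, and 1078 with DESeq2, the test that the study used, at the same thresholds. With edgeR there were 1173 without a filter on low counts. At an adjusted p under 0.05 there were 1246 with a fold above 1.5 and 1737 at any fold. Without 1 sample the number ran from 546 to 749. The direction of *Socs1* reversed with GC content offsets (0.023). Directions also reversed without 1 sample for *Socs1* (-0.23 to 0.10), *Cish* (-0.0036 to 0.22), *Jak3* (-0.083 to 0.066) and *Nfil3* (-0.11 to 0.060), and the cause was not tested. Of 690 values of 46 named genes under 15 alternatives, 653 kept direction and side of the threshold, 19 fell short of it, 8 newly passed it and 10 reversed. Without S3, the sample with the most myeloid marker RNA, *Stat5a* was at -0.40, *Socs2* at 0.45 and *Socs3* at -0.16. The lowest count of a member was 126, and *Ifngr2* had 3 counts in its lowest sample.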

Other observations

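Of the pathway cytokines under the filter on low counts, *Il21*, a STAT3-activating cytokine, had raw counts of 0, 2, 3 and 40 in the WT samples and 0, 91, 31 and 13 in the KO samples, with no test. *Il6* and *Il9* were at 0 counts in all 8 samples.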
